A study of Homo sapiens with 9 samples.

Results

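The genes described here are 10 components of transforming growth factor beta (TGF-beta) signalling, measured by RNA sequencing in 786-O cells. They were chosen by symbol: the ligands TGFB1, TGFB2 and TGFB3, the receptors TGFBR1, TGFBR2 and TGFBR3, the signal transducer SMAD3, the feedback inhibitor SMAD7, the co-repressor SKIL and the secreted TGF-beta-induced protein TGFBI. The choice was made with earlier results of these data known. All 10 were present among the 38021 genes of the count table. 786-O is an established human renal carcinoma cell line that lacks functional VHL, so the hypoxia-inducible factor HIF2α (EPAS1) is not degraded in it. Cells were infected with lentivirus that carried a pLKO.1 construct for a short hairpin RNA (shRNA), either a control hairpin (shControl) or a hairpin against ARNT (shARNT) or against BMAL1 (shBMAL1), and all of them, controls included, were selected and kept in puromycin. The cells labelled shControl carry the genotype label WT, the others ARNT knockdown or BMAL1 knockdown. The labels call the 3 libraries of a group biological replicates, so p values measure the spread between these libraries. The labels name no hairpin, and each gene is represented by a single knockdown label, so effects of a hairpin cannot be told apart from those of the knockdown. The comparisons ask which transcripts differ when either factor is lowered in cells with active HIF2α.

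TGF-beta ligands are secreted as latent dimers that bind latent TGF-beta binding proteins in the matrix and are released by integrins and proteases. Active ligand binds TGFBR2, which recruits and phosphorylates TGFBR1, and TGFBR3 (betaglycan) is a co-receptor that presents ligand, TGFB2 in particular. TGFBR1 phosphorylates SMAD2 and SMAD3, which enter the nucleus with SMAD4 and induce targets that include the pathway's own inhibitors SMAD7 and SKIL. ARNT is the classical partner of HIF2α, and BMAL1 is the related partner of CLOCK in the circadian clock.

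The library totals ran from 33793045 to 35444735 reads, with 20068 to 20778 genes detected. ARNT had 2352 ± 184 normalised read counts in shControl and 1225 ± 23.2 in shARNT (SD, n = 3), which differed by -0.94 on the log2 scale (SE 0.074, adjusted p 8.81e-35). BMAL1, listed as ARNTL, had 761 ± 32.0 in shControl and 326 ± 29.2 in shBMAL1, a difference of -1.23 (SE 0.114, adjusted p 2.51e-25). The RNA of the other partner was also called slightly lower in each knockdown. For protein the paper reports the opposite in 786-O cells, slightly more ARNT after BMAL1 depletion and the reverse. The RNA calls therefore do not stand for protein. ARNT differed by -0.23 under shBMAL1 (adjusted p 0.0187), a call lost without shControl replicate 2 (0.162) or shBMAL1 replicate 2 (0.109). ARNTL differed by -0.26 under shARNT (adjusted p 0.0294), a call lost without shControl replicate 2 (0.15) or shARNT replicate 3 (0.22). All 9 renal carcinoma markers examined, PAX8, PAX2 and EPAS1 among them, averaged 50 or more normalised counts. Of 5 endothelial markers none reached that mean and CDH5 was at 0 in every library. Of 6 leukocyte markers only CD68 reached it, while CD3E and LYZ were at 0. Of 6 fibroblast markers LUM and COL1A1, which is also on the list of target genes, reached it, COL3A1 and DCN were near 0, and the sum of the list ran from 237 to 294 in shControl, from 209 to 221 in shARNT and from 370 to 426 in shBMAL1. Mitochondrial transcripts held 6.21 ± 0.854% of the shControl reads, 8.06 ± 0.604% of those in shARNT and 9.33 ± 0.538% of those in shBMAL1. The part of the fibroblast-marker and mitochondrial differences in the results below was not tested.

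The 250 bases before the RefSeq start of TGFB1, TGFBR2, SMAD3 and TGFBI, which stand for the different patterns of change described below, are shown first (RefSeq promoters, GRCh38.p14, 5′ to 3′ on the gene's strand). Capitals mark the letters ACGTG or GCGTG on either strand, the core of the hypoxia response element that ARNT heterodimers bind; a CACGTG in capitals is the E-box of BMAL1 with CLOCK, and it contains ACGTG. The TGFB1 window is chr19:41353923-41354172 (minus strand), that of TGFBR2 chr3:30606106-30606355 (plus strand, first of 2 starts), that of SMAD3 chr15:67065352-67065601 (plus strand, first of 5 starts) and that of TGFBI chr5:136028738-136028987 (plus strand).
TGFB1: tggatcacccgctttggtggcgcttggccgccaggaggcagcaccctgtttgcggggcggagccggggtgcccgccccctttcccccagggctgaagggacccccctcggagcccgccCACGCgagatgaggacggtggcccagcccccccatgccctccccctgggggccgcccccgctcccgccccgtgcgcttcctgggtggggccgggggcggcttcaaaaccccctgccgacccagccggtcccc
TGFBR2: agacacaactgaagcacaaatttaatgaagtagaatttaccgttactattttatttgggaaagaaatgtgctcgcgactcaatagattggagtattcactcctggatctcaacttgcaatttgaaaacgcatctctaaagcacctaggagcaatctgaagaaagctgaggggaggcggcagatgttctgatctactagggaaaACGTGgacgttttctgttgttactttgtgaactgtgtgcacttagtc
SMAD3: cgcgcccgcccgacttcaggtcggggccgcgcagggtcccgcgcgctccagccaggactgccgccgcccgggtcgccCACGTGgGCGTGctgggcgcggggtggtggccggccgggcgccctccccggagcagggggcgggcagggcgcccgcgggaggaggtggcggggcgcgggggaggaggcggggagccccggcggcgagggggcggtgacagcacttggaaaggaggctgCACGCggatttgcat
TGFBI: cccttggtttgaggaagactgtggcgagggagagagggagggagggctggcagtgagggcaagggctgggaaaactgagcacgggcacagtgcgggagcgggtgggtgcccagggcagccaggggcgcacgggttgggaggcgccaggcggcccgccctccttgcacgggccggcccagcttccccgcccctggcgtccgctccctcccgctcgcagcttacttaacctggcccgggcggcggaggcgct
The TGFB1 window held 1 core, whose first base lay 132 bases before the start. The first TGFBR2 window held 1 core 47 bases before its start, and its second window held neither sequence. The first SMAD3 window held an E-box 173 bases and cores 166 and 15 bases before its start. Of its 5 windows 3 held a core and 1 an E-box. The TGFBI window held neither sequence. Over all 10 genes, 16 of 25 windows (64.0%) held a core, beside 43.2% of 35116 RefSeq windows of the same length, and 3 (12.0%) held an E-box, beside 6.34%. The E-boxes were in the windows of TGFB2, TGFB3 and SMAD3. Alone, ACGTG was in 18.5% and GCGTG in 32.2% of all windows. Windows of neighbouring starts of TGFBR1 and of TGFBR2 overlap, so the 25 windows are not independent, and a match of letters is not a binding site.

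Transcript levels of the 10 genes spanned several orders of magnitude. Per kilobase of the longest coding transcript, TGFBI was the most abundant in shControl at 32460 ± 1870 normalised reads per kilobase, followed by TGFB1 at 2368 ± 183, SMAD3 at 973 ± 40.5 and TGFBR2 at 903 ± 17.7. TGFB2 had 259.8 ± 17.6 per kilobase, SMAD7 146 ± 7.70, SKIL 138 ± 12.4 and TGFBR1 121.5 ± 7.97. The lowest were TGFBR3 at 18.4 ± 0.970 and TGFB3 at 7.72 ± 2.97 per kilobase. SMAD7 and SKIL did not differ beyond their spread in shControl. TGFBI ranked 19 of 25515 genes with reads by mean normalised count, and it held 0.251 ± 0.0123% of the shControl reads, 0.182 ± 0.0106% of the shARNT reads and 0.470 ± 0.0198% of the shBMAL1 reads. With the median transcript length in place of the longest, SMAD3 stood at 3229 ± 134 and SMAD7 at 401 ± 21.2 per kilobase, which put SMAD7 above TGFB2 at 279 ± 18.9. The order of these genes therefore depends on which transcript is taken.

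**Figure D1:**
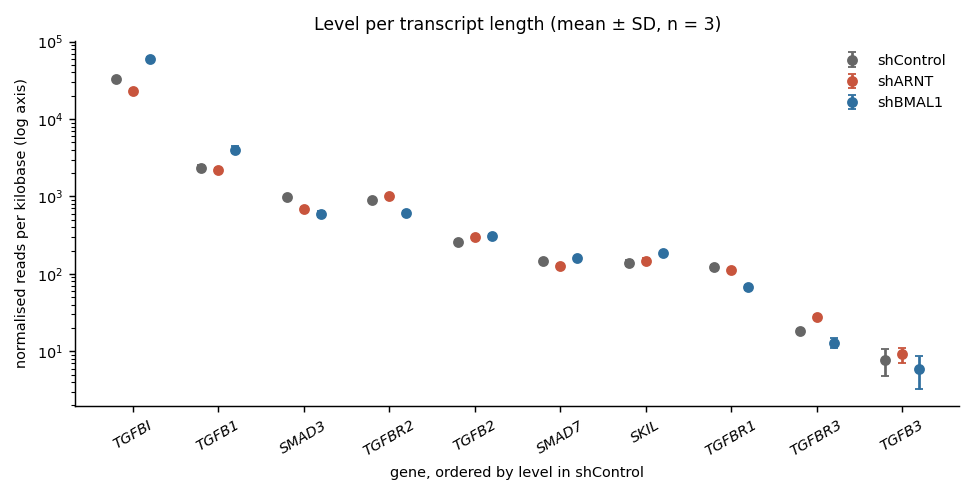
Normalised reads per kilobase of the longest coding transcript on a log axis for the 10 genes, ordered by their level in shControl; points are means and bars the SD of 3 libraries per group. TGFBI and TGFB1 lead in all 3 groups, and TGFBR3 and TGFB3 are lowest.

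In shARNT against shControl 5 of the 10 genes were called at an adjusted p under 0.1, SMAD3 and TGFBI lower and TGFB2, TGFBR2 and TGFBR3 higher. Over all 15164 genes tested 35.4% were called, 19.0% lower and 16.5% higher. In shBMAL1 against shControl 8 of 10 were called, with TGFBR1, TGFBR2, TGFBR3 and SMAD3 lower and TGFB1, TGFB2, SKIL and TGFBI higher, beside 36.8% of 19036 genes (19.4% lower, 17.4% higher). In shBMAL1 against shARNT 8 of 10 were called, 4 in each direction, beside 35.3% of 18181 genes (18.0% lower, 17.3% higher). The median absolute log2 fold change of the 10 genes was 0.20 in shARNT, 0.53 in shBMAL1 and 0.66 between the knockdowns, beside 0.18, 0.29 and 0.26 over all genes tested. None of the 5 calls in shARNT reached a 1.5-fold change, 4 of the 8 in shBMAL1 did, and 5 of the 8 between the knockdowns did, beside 7.91%, 13.7% and 11.4% of all genes tested that were called with a change of that size. TGFBR2, TGFBR3 and TGFBI were called in opposite directions by the knockdowns and also called between them, which held for 3.57% of the 15162 genes tested in all 3 comparisons. Because the 10 genes were chosen with earlier results of these data known, these counts and shares describe them and do not test the set. The comparisons share libraries: both knockdowns were compared with the same shControl libraries. In a bulk sample fewer cells of a type and less RNA per cell cannot be told apart.

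**Figure D2:**
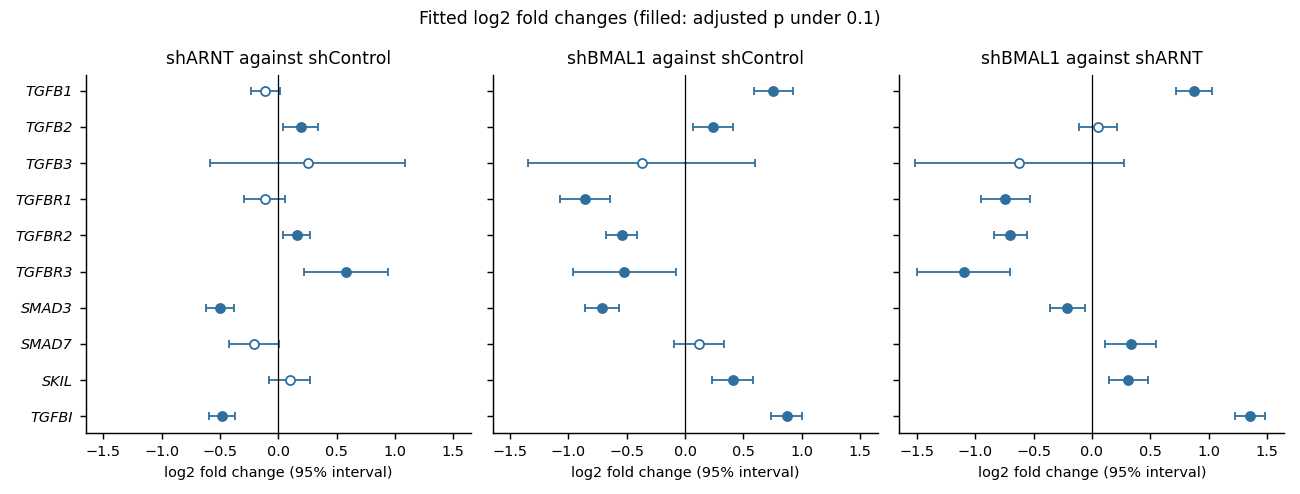
Log2 fold changes fitted in DESeq2 for the 10 genes in the 3 comparisons, with 95% intervals; filled points have an adjusted p under 0.1. TGFBR2, TGFBR3 and TGFBI lie on opposite sides of 0 in shARNT and in shBMAL1, and SMAD3 lies below 0 in both.

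TGFB1, the ligand with the highest level, was higher under shBMAL1 than in either other group and was not called under shARNT. Its normalised read counts were 6051, 6639 and 7063 in shControl, 5865, 6447 and 5944 in shARNT, and 12180, 9897 and 11380 in shBMAL1. The 3 shBMAL1 libraries lay above all others, while shARNT and shControl overlapped. TGFB1 changed by 0.76 on the log2 scale in shBMAL1 (SE 0.083, adjusted p 3.61e-18), a fold of 1.69, and 0.87 in shBMAL1 against shARNT (SE 0.079, adjusted p 2.63e-26). In shARNT it was -0.11 (95% interval -0.24 to 0.015, adjusted p 0.197), and without shControl replicate 1 it was called at -0.17 (adjusted p 0.0508). Exons of TGFB1 (GRCh37 chromosome 19, 41807492 to 41859827, minus strand) overlap those of HNRNPUL1 on the opposite strand, and whether reads were counted by strand is not given in the sources used here. HNRNPUL1 had 13390 ± 461 counts in shControl, 12400 ± 445 under shARNT (log2 fold change -0.11, adjusted p 0.088) and 14510 ± 316 under shBMAL1 (0.11, adjusted p 0.136). Between the knockdowns it was called at 0.23 (adjusted p 0.000753), in the direction of TGFB1, and its part in the TGFB1 values was not tested.

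TGFB2 was slightly higher in both knockdowns. It had 1472, 1458 and 1644 normalised counts in shControl, 1680, 1702 and 1828 in shARNT, and 1673, 1941 and 1793 in shBMAL1. Neither knockdown overlapped shControl, and the knockdowns overlapped each other. Against shControl TGFB2 differed by 0.19 on the log2 scale under shARNT (SE 0.074, adjusted p 0.0381) and by 0.24 under shBMAL1 (SE 0.086, adjusted p 0.0211), and between the knockdowns 0.05 (95% interval -0.11 to 0.21). Both calls rested on single libraries. The shARNT call was lost without shControl replicate 1 (adjusted p 0.177), shControl replicate 2 (0.179) or shARNT replicate 3 (0.208). The shBMAL1 call was lost without shControl replicate 1 (0.117), shControl replicate 2 (0.12) or shBMAL1 replicate 2 (0.148). TGFB2 (chromosome 1, 218518678 to 218617961, plus strand) shares exon sequence with TGFB2-OT1 on the same strand and with TGFB2-AS1 on the opposite strand. TGFB2-OT1 was also called higher in both knockdowns, with log2 fold changes of 0.20 for shARNT (adjusted p 0.0782) and 0.35 for shBMAL1 (adjusted p 0.0055). TGFB2-AS1, at 18.4 ± 4.11 counts in shControl, had 33.1 ± 7.19 in the shARNT libraries (0.85, adjusted p 0.136) and 33.4 ± 0.769 in those of shBMAL1 (0.86, adjusted p 0.118). Reads of these genes may be shared with TGFB2, and their part in its values was not tested.

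TGFB3 was barely expressed. Its raw read counts were 38, 20 and 21 in shControl, 37, 24 and 35 in shARNT, and 28, 10 and 24 in shBMAL1, and all groups overlapped. No comparison was called, and the 95% intervals of the log2 fold change ran from -0.58 to 1.08 in shARNT and from -1.34 to 0.60 in shBMAL1, so a change of moderate size was not detectable at this depth. TGFB3 lies on chromosome 14 (76424440 to 76449354, minus strand) and overlaps TGFB3-AS1 on the opposite strand. Of the reads per kilobase of the 3 ligands together, TGFB1 took 89.3 to 90.4% in the shControl libraries, 86.9 to 88.7% in shARNT and 91.4 to 93.7% in shBMAL1, so the ranges of the 3 groups did not overlap. The TGFB2 share averaged 9.87 ± 0.442% in shControl, 11.9 ± 0.789% in shARNT and 7.18 ± 1.22% in shBMAL1. With the median transcript length TGFB1 took 94.8 ± 0.323%, 93.6 ± 0.491% and 96.3 ± 0.600%.

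The 3 receptors were all lower under shBMAL1, and none of them was lower by the test under shARNT. TGFBR1, the type I receptor kinase (chromosome 9, 101866320 to 101916474, plus strand), had 842, 785 and 739 normalised counts in shControl, 708, 734.5 and 736.5 in shARNT, and 439.8, 399 and 466 in shBMAL1. Every shBMAL1 library lay well below the other 6. TGFBR1 had a log2 fold change of -0.86 in shBMAL1 (SE 0.110, adjusted p 1.07e-13), a fold of 0.551, and -0.74 against shARNT (SE 0.107, adjusted p 9.49e-11). In shARNT it was -0.12 (95% interval -0.29 to 0.06, adjusted p 0.373), although the lowest shControl library was just above the highest shARNT library.

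TGFBR2, the type II receptor that binds ligand (chromosome 3, 30648093 to 30735634, plus strand), had 4211, 4198 and 4064 normalised counts in shControl, 4879, 4380 and 4626 in shARNT, and 3040, 2708 and 2810 in shBMAL1. The groups were fully separate, with shARNT highest and shBMAL1 lowest. Relative to shControl the log2 difference was 0.16 for shARNT (SE 0.058, adjusted p 0.0241) and -0.55 for shBMAL1 (SE 0.070, adjusted p 1.58e-13). Between the knockdowns it was -0.70 (SE 0.073, adjusted p 4.34e-20). The shARNT call was lost without shControl replicate 3 (adjusted p 0.113) or shARNT replicate 1 (0.172).

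TGFBR3, the co-receptor betaglycan (chromosome 1, 92145900 to 92371892, minus strand), followed the same order at far fewer reads. It had 109.7, 119 and 121 normalised counts in shControl, 175, 163 and 184 in shARNT, and 92.3, 68.5 and 83.2 in shBMAL1, with no overlap between groups. On the log2 scale TGFBR3 differed from shControl by 0.58 in shARNT (SE 0.182, adjusted p 0.00716), by -0.52 in shBMAL1 (SE 0.226, adjusted p 0.063) and -1.10 between the knockdowns (SE 0.204, adjusted p 9.34e-07). The shBMAL1 call was lost when any of 5 of the 6 libraries was left out: without shControl replicates 1, 2 or 3 the adjusted p was 0.107, 0.157 and 0.191, and without shBMAL1 replicates 2 or 3 it was 0.262 and 0.13. It was also lost with the replicate number as a block (-0.53, adjusted p 0.174). Of the reads per kilobase of the 3 receptors, TGFBR2 took 86.6 ± 0.394% in shControl, 87.8 ± 0.680% in shARNT and 88.6 ± 0.696% in shBMAL1.

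**Figure D3:**
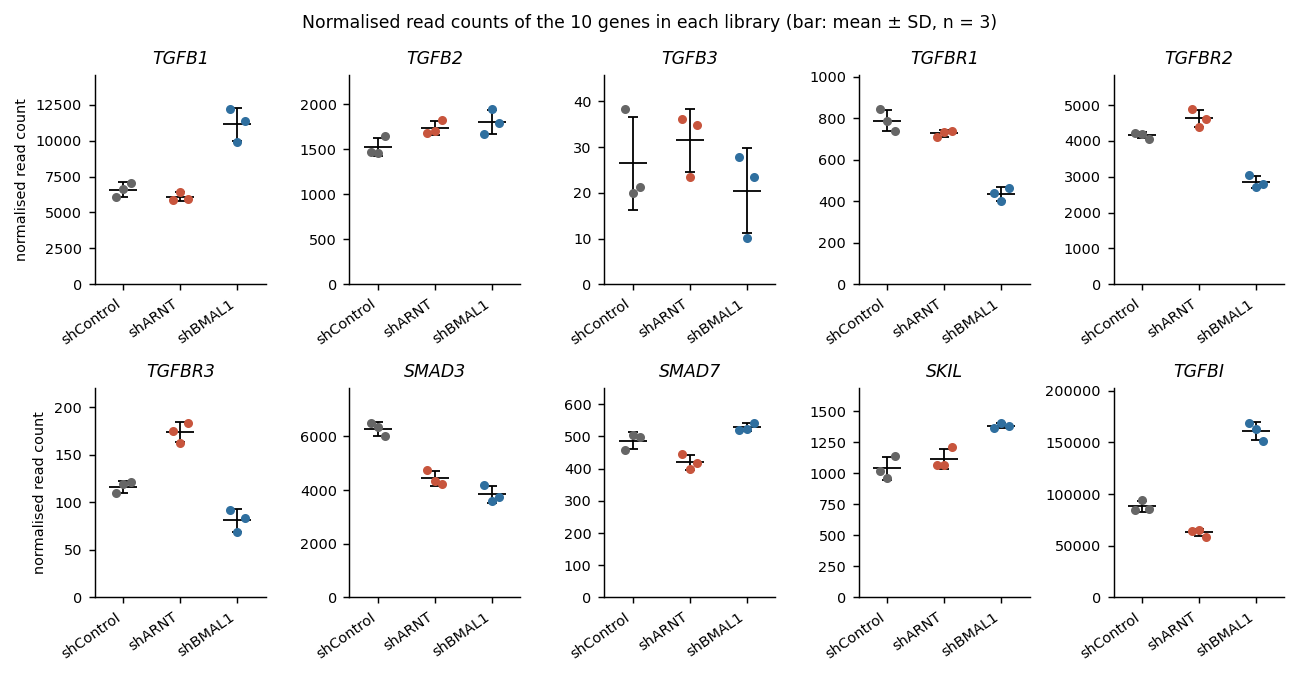
Normalised read counts of the 10 genes in each of the 9 libraries; each point is a library, and black bars give the mean ± SD of 3 libraries per group, on axes that start at 0. The shBMAL1 libraries are highest for TGFB1 and TGFBI and lowest for TGFBR1, TGFBR2 and TGFBR3.

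SMAD3, the transducer of the receptor signal (chromosome 15, 67356101 to 67487511, plus strand), was lower in both knockdowns. It had 6510, 6352 and 5999 normalised counts in shControl, 4764, 4342 and 4230 in shARNT, and 4193, 3611 and 3728 in shBMAL1. Every knockdown library lay far below every shControl library. SMAD3 fell by 0.50 on the log2 scale under shARNT (SE 0.060, adjusted p 6.32e-15) and by 0.71 under shBMAL1 (SE 0.074, adjusted p 2.75e-20). Between the knockdowns the difference was -0.21 (SE 0.077, adjusted p 0.0245), a call lost without shARNT replicate 1 (adjusted p 0.174) or shBMAL1 replicate 2 (0.143). An unnamed gene overlaps SMAD3 on the opposite strand.

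Of the inhibitors that the pathway induces, SKIL was higher under shBMAL1 and SMAD7 was not called against shControl. SKIL, a co-repressor that binds SMAD complexes (chromosome 3, 170075130 to 170114623, plus strand), had 1023, 961 and 1144 normalised counts in shControl, 1068, 1067 and 1210 in shARNT, and 1369, 1409 and 1381 in shBMAL1. The shBMAL1 libraries lay above the other 6, which overlapped. SKIL had a log2 fold change of 0.41 in shBMAL1 (SE 0.089, adjusted p 3.59e-05), 0.31 against shARNT (SE 0.085, adjusted p 0.00144) and 0.10 in shARNT (95% interval -0.08 to 0.28, adjusted p 0.451). SMAD7, which blocks SMAD phosphorylation at the receptor (chromosome 18, 46446223 to 46477335, minus strand), had 458, 505 and 499 normalised counts in shControl, 445, 399 and 417 in shARNT, and 521, 524 and 542.5 in shBMAL1. Its groups did not overlap, with shARNT lowest. The log2 fold change of SMAD7 was -0.21 in shARNT (95% interval -0.43 to 0.007, adjusted p 0.147) and 0.12 in shBMAL1 (95% interval -0.10 to 0.33, adjusted p 0.472). Between the knockdowns it was 0.33 (SE 0.112, adjusted p 0.0131). In edgeR's quasi-likelihood test the shARNT difference of SMAD7 was called (adjusted p 0.0848).

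TGFBI, a secreted matrix protein named for its induction by TGF-beta (chromosome 5, 135364677 to 135399507, plus strand), moved in opposite directions. It had 84720, 93870 and 85510 normalised counts in shControl, 64470, 65500 and 58890 in shARNT, and 169000, 163100 and 151400 in shBMAL1. The groups were fully separate. TGFBI fell by 0.48 on the log2 scale under shARNT (SE 0.056, adjusted p 4.17e-16), a fold of 0.717, and rose by 0.87 under shBMAL1 (SE 0.067, adjusted p 4.04e-37), a fold of 1.83. Between the knockdowns the log2 difference was 1.36 (SE 0.066, adjusted p 2.44e-91), a fold of 2.56. Of the alternatives run, only a minimum change of 1.5-fold ended any of these 3 calls, that of shARNT.

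Among the 12918 genes that averaged 50 or more normalised counts, the pattern of TGFBI over the 9 libraries was most like those of SEMA6A, FAM149A and PPARD, by Euclidean distance of centred log2 counts (0.194, 0.26 and 0.267). SEMA6A, a transmembrane semaphorin, averaged 3684 normalised counts in shControl, 2555 under shARNT and 7207 under shBMAL1. The pattern of TGFB1 was nearest to those of CITED2, SEMA3F and DHRS13 (0.212, 0.264 and 0.283). CITED2, a transcriptional co-regulator that competes with HIF for its coactivators, averaged 3005, 2661 and 4967. These genes were chosen for their likeness, so their values are a description.

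Beyond the 10 genes, 77 other genes of the pathway were listed by role and all were in the table. These lists too were chosen with earlier results of these data known, so their counts are a description. In shARNT 15 were lower and 14 higher of the 67 tested, and in shBMAL1 17 were lower and 21 higher of the 72 tested. Between the knockdowns 19 were lower and 24 higher of 72. Over all genes tested, the shares called were 35.4% (19.0% lower, 16.5% higher) in shARNT, 36.8% (19.4% and 17.4%) in shBMAL1 and 35.3% (18.0% and 17.3%) between the knockdowns, and the counts by role below stand beside the same shares. The median log2 fold change over the tested genes was 0.006 in shARNT and 0.022 in shBMAL1, beside 0.0028 and 0.0153 over all genes tested. Against shControl the calls went in both directions within each role, except that none of the receptors was called in shARNT, and that the 2 SMAD partner calls in shARNT were both higher.

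**Figure D4:**
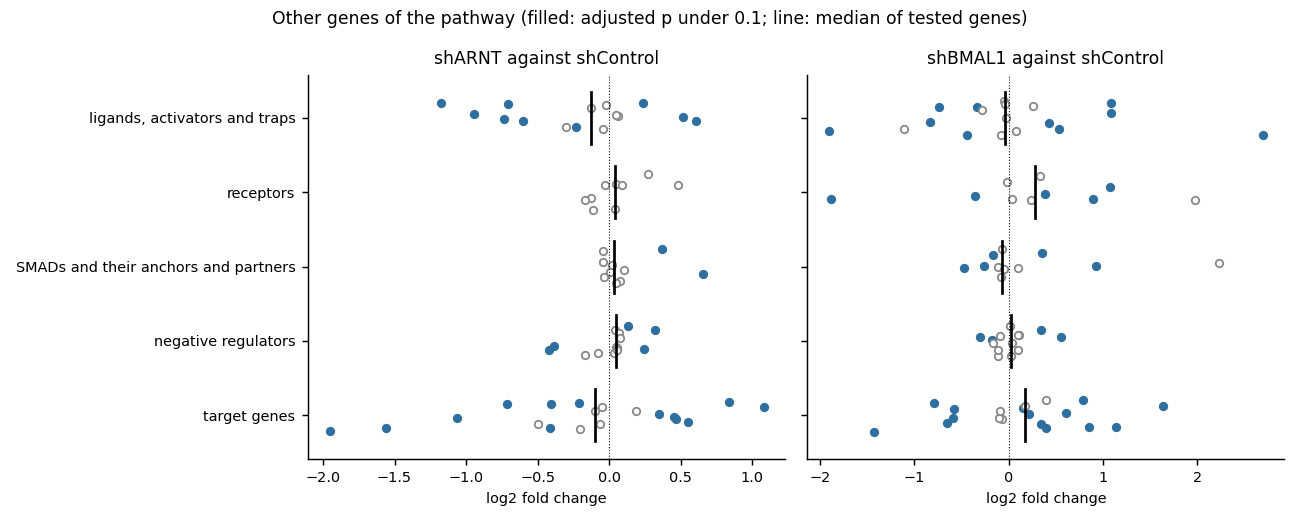
Log2 fold changes of the other pathway genes tested in each knockdown against shControl, by role; filled points have an adjusted p under 0.1, open points do not, and black lines are the median of each list. The points lie on both sides of 0 in every list, with medians between -0.128 and 0.285.

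Among ligands, activators and traps, 6 of 15 tested were lower and 3 higher in shARNT, and 5 of 18 were lower and 5 higher in shBMAL1. LTBP1, a latent TGF-beta binding protein, fell in shARNT (174.7 ± 23.8 to 77.2 ± 27.6 normalised counts, log2 fold change -1.17, SE 0.244, adjusted p 1.68e-05) and was not called in shBMAL1 (0.26, adjusted p 0.291). LTBP4, of the same family, fell in both, by 0.60 in shARNT (adjusted p 6.15e-21) and 0.84 in shBMAL1 (adjusted p 7.16e-33) on the log2 scale. INHBA, the activin A subunit, also fell in both, from 468 ± 57.0 to 243 ± 26.9 and 125.5 ± 2.44 counts (-0.94, adjusted p 1.43e-10, and -1.90, adjusted p 6.45e-34). Integrin subunits ITGB6 and ITGB8 form receptors that activate latent TGF-beta. ITGB8 rose in shBMAL1 from 1847 ± 37.7 to 3934 ± 193 counts (1.09, SE 0.071, adjusted p 4.9e-51) and was at 1815 ± 104 in shARNT (-0.02, adjusted p 0.859). ITGB6 rose in shBMAL1 (1.09, SE 0.193, adjusted p 2.09e-07) and in shARNT (0.52, adjusted p 0.015), the latter call being lost without shControl replicate 3 (0.111) or shARNT replicate 2 (0.114). GDF15, a divergent family member induced by stress, rose in shARNT (0.61, adjusted p 3.48e-17) and not by the test in shBMAL1 (-0.03, adjusted p 0.84).

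Among the other receptors none of 9 tested was called in shARNT, where edgeR called ENG (adjusted p 0.0755), while 2 of 10 were lower and 3 higher in shBMAL1. ENG (endoglin), a co-receptor, fell in shBMAL1 from 69.0 ± 16.3 to 18.8 ± 7.89 counts (-1.88, SE 0.385, adjusted p 9.8e-06). BMPR2, a type II receptor for bone morphogenetic proteins, fell by 0.35 (adjusted p 3.76e-05). BAMBI, a decoy receptor without a kinase domain, rose from 577 ± 21.2 to 1074 ± 84.8 counts (0.89, SE 0.099, adjusted p 5.49e-18), and BMPR1B rose by 1.08 (adjusted p 1.27e-07). The remaining call was ACVR1B, an activin type I receptor (0.39, adjusted p 4.93e-05), which was named after its values were seen.

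Among SMADs, their anchors and partners, 2 of 10 tested were higher in shARNT, and 3 of 11 were lower and 2 higher in shBMAL1. SMAD9, a transducer of bone morphogenetic protein signals, rose in both (0.66, adjusted p 0.00793, and 0.93, adjusted p 3.06e-05). SMAD6, an inhibitory SMAD, rose in both (0.37, adjusted p 0.0125, and 0.36, adjusted p 0.0233). The shARNT call of SMAD6 was lost without shControl replicate 2 (0.116) or shARNT replicate 1 (0.1), and its shBMAL1 call without shControl replicate 2 (0.156) or shBMAL1 replicate 1 (0.145). ZFYVE9 (SARA), which brings SMAD2 and SMAD3 to the receptor, fell by 0.47 in shBMAL1 (adjusted p 9.46e-07). SMAD5 fell by 0.26 in shBMAL1 (adjusted p 0.0245), a call lost without shControl replicate 3 (0.21) or shBMAL1 replicate 2 (0.167).

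Among 14 genes listed as negative regulators 2 were lower and 3 higher in shARNT, and 2 lower and 2 higher in shBMAL1. Not all genes on this list act only as inhibitors. The ubiquitin ligase SMURF2 and the membrane adaptor PMEPA1 fell in shARNT (-0.42, adjusted p 1.13e-07, and -0.38, adjusted p 3.87e-05), and both were above shARNT in shBMAL1 (0.33, adjusted p 0.000335, and 0.48, adjusted p 2.87e-07). The ubiquitin ligases SMURF1 and WWP1 fell in shBMAL1 (-0.30, adjusted p 0.000784, and -0.18, adjusted p 0.0267), the WWP1 call being lost without shControl replicate 2 (0.146). SKI, the relative of SKIL, rose in shBMAL1 (0.34, adjusted p 0.00993), a call lost without shControl replicate 1 (0.101). The co-repressor TGIF1 rose in shARNT (0.24, adjusted p 0.00228). TGIF2 rose in shBMAL1 (0.56, adjusted p 0.000649). In shARNT TGIF2 was called at 0.32 (adjusted p 0.0856), which was lost with TMM size factors (0.101), with the replicate block (0.209) and without shControl replicates 2 (0.236) or 3 (0.241) or shARNT replicates 1 (0.343), 2 (0.163) or 3 (0.113).

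Among target genes 7 of 19 tested were lower and 6 higher in shARNT, and 5 were lower and 9 higher in shBMAL1. PDGFB, a platelet-derived growth factor chain, fell by 1.95 in shARNT (adjusted p 5.87e-47) and by 0.65 in shBMAL1 (adjusted p 1.68e-06). VEGFC, a lymphangiogenic growth factor, fell by 0.41 (adjusted p 1.53e-05) and 0.79 (adjusted p 8.49e-14). ID1 and ID3, inhibitors of helix-loop-helix factors and targets of bone morphogenetic protein signalling, rose in both knockdowns. ID1 had 1209 ± 13.2 counts in shControl, 2155 ± 107 under shARNT and 2670 ± 31.8 under shBMAL1 (0.84, adjusted p 2.01e-31, and 1.14, adjusted p 1.63e-54), and ID3 rose by 1.08 (adjusted p 1.17e-30) and 1.63 (adjusted p 6.43e-56).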

How the data were processed

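RNA from 9 libraries of 786-O cells, 3 per group, was made into stranded mRNA libraries. Per the labels, groups and replicate numbers came from the sample titles. The deposited values were estimated counts, which the authors gave as linear total reads for each gene, not scaled to depth. The methods of the study name SeqMan NGen, ArrayStar and GRCh37, whereas the submitters' processing notes name STAR, DESeq2 and hg38, so the build behind the counts could not be settled. The annotation and strand setting were not given in the sources used here. A stand-in of 0.009 for 0 filled 46.3% of cells and was set to 0, other fractional values (6.14%; none in the 10 genes) were rounded, and 53 rows sharing a name were added together, leaving 38021 genes. A further 28 rows with date-like names were kept and not named.

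Each comparison was fitted in DESeq2 1.42.0 (R 4.3.3) using only the 6 libraries compared. Size factors were medians of ratios, the Wald test was two-sided, genes were filtered independently at 0.1, and p values were adjusted by Benjamini-Hochberg over all genes tested; a gene was called at an adjusted p under 0.1. Intervals are 95% Wald intervals. Normalised counts used size factors over all 9 libraries. The pipeline was tested on simulated data. No library pair was a duplicate: chi-square per degree of freedom was 7.60 to 17.6 within groups and 48.1 to 102 between. Alternatives were edgeR 4.0.16 (quasi-likelihood, TMM), TMM size factors, a filter of 10 counts in 3 libraries, an adjusted p under 0.05, a 1.5-fold minimum, a fit of all 9 libraries, a replicate block, leaving out each library, and the median transcript length for levels per kilobase. Gene coordinates and transcript lengths came from GENCODE on GRCh37, promoters from RefSeq on GRCh38.p14.

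The members and gene lists were chosen with earlier results of these data known. Beside the 10 genes, ARNT and BMAL1, the text names the 2 most lowered and 2 most raised called genes of each list in each knockdown that averaged 50 or more normalised counts, and the 3 genes nearest in pattern to TGFBI and to TGFB1. A gene that this rule selects is not reported here. Outside the rule, ACVR1B was named after its values were seen, and cell type markers and genes that overlap a member were named for those checks.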

Additional observations from a re-analysis of the deposited data

Results flagged for a closer look

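Of the 10 genes, 3 were called in opposite directions by the knockdowns, and the direct comparison of shBMAL1 against shARNT, which tests the difference itself, was called for each in DESeq2. Of the 15162 genes tested in all 3 comparisons 3.57% met the same conditions. The 10 genes were chosen with earlier results of these data known, so that share is given as a description and not as a test. The comparisons share libraries, so the direct call is not independent of the directions that chose these genes. TGFBR2 differed by a log2 fold change of -0.70 (adjusted p 4.34e-20), being higher in shARNT (0.16) and lower in shBMAL1 (-0.55) than in shControl. TGFBR3 differed by -1.10 (adjusted p 9.34e-07; 0.58 and -0.52 against shControl), and TGFBI by 1.36 (adjusted p 2.44e-91; -0.48 and 0.87). In each of the 3 genes every shARNT library lay on the other side of the shControl libraries from every shBMAL1 library. That separation follows in part from how the 3 genes were chosen, and its share over all genes was not counted. SMAD7, not called against shControl in either knockdown, showed it as well. The shARNT call of TGFBR2 and the shBMAL1 call of TGFBR3 were lost when single libraries were left out.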

How the results depend on the processing

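A minimum change of 1.5-fold lowered the genes called among the 10 from 5 to 0 in shARNT, from 8 to 4 in shBMAL1 and from 8 to 5 between the knockdowns, and the other pathway genes called from 29 to 13, from 38 to 18 and from 43 to 13. Over all genes tested 7.91%, 13.7% and 11.4% were called at that minimum, beside 35.4%, 36.8% and 35.3% without it. Under every other alternative run these counts stayed within 1.5 times. With single libraries left out they ran from 4 to 5, 6 to 8 and 7 to 8 for the 10 genes, and from 24 to 27, 31 to 36 and 37 to 43 for the others. The replicate block gave 5, 7 and 8 of the 10 genes and 25, 34 and 38 of the others. Same-numbered libraries correlated at -0.157 to 0.098 over 9 pairs, and 8 of 18 best matches were to a library's own number, so the numbers did not pair the libraries. Without single libraries some uncalled log2 fold changes turned in direction. Their ranges were -0.079 to 0.048 for BAMBI, -0.051 to 0.025 for ITGB8, -0.03 to 0.09 for SKI and -0.117 to 0.042 for SMAD5 in shARNT, and -0.081 to 0.039 for GDF15 and -0.07 to 0.112 for TGIF1 in shBMAL1. Between the knockdowns they were -0.004 to 0.105 for TGFB2 (negative without shBMAL1 replicate 2) and -0.078 to 0.058 for SMAD6. The cause was not tested.

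Against shControl 3 libraries per group and 1 hairpin label per knockdown limit these comparisons. Counts under about 50, as for TGFB3, gave intervals too wide to show moderate changes. Levels per kilobase moved with the transcript length taken.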
